A study of Mus musculus with 4 samples.

Results

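The genes described here carry out protein folding in the endoplasmic reticulum (ER) and its quality control: stress sensors, ER chaperones, disulfide isomerases and oxidases, ER degradation factors and translocon subunits. They were chosen by name, as 35 symbols. Of these, 31 had a row among the 24768 genes kept from the deposited table. Eif2ak3, P4hb, Txndc5 and Syvn1 are not analysed here. The values are FPKM, a read count divided by gene length and library total, from RNA sequencing of mouse T cells called cDNT cells. There were 2 WT libraries and 2 Tbx21-KO libraries. DNT stands, by the title, for double-negative T cells, which lack the CD4 and CD8 coreceptors, and Tbx21 encodes T-bet, a transcription factor of T helper 1 and cytotoxic lymphocytes. The sample labels call the second group a knockout and the design text calls it a knockdown. The labels give no strain, age, culture time, allele or way of removing the gene, and do not say whether the 2 libraries of a group came from separate animals or cultures, so the p-values reflect library-to-library spread that may be purely technical.

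Proteins that a cell secretes or places on its surface enter the ER through the SEC61 channel, fold there with the help of chaperones such as BiP (Hspa5), and gain disulfide bonds from isomerases recharged by ERO1 oxidases. Chains that fail to fold are drawn back to the cytosol and degraded. When unfolded chains build up, membrane sensors start the unfolded protein response: the IRE1 alpha enzyme (Ern1) splices the mRNA of the transcription factor Xbp1, ATF6 is cut free from the membrane, and the kinase PERK (Eif2ak3) slows translation and favours the factor ATF4. Spliced XBP1 and cleaved ATF6 act on genes of chaperones and of ER degradation. T cells that make much cytokine or granule protein depend on this machinery. FPKM sums all reads of a gene, so neither Xbp1 splicing nor ATF6 cleavage is seen in these values.

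Many promoters of this pathway hold the ER stress element, to which ATF6 binds together with the factor NF-Y. It was searched as CCAAT and CCACG with 9 bases of any kind between them, and its shorter form ERSE-II as ATTGG and CCACG with 1 base between them, on both strands of RefSeq promoter windows (GRCm38.p6) from 250 bases before to 50 bases after the gene start. Of the 31 genes, 25 matched the RefSeq table, Ero1l and Ero1lb through their other symbols Ero1a and Ero1b. The element stood in 8 of these 25 genes (32.0%), against 14 of all 7811 tested genes with a window (0.179%) and 39 of all 32851 windows (0.119%). The sequences are shown because the element is the promoter feature that these genes, chosen by name, hold at a higher share than genes at large, and Hspa5, Calr, Pdia6 and Herpud1 among them are described in the results. Capitals mark its fixed ends, which read CGTGG and ATTGG where it lies on the other strand. Positions count from the RefSeq gene start, and the sequences run 5′ to 3′ on the gene's strand. For Hspa5 that start lies inside the gene span given below (34771970 to 34777547). Its stretch therefore falls within that span and is shown with shorter flanks.
Hspa5, -65 to -47, chr2:34772020-34772048, plus strand: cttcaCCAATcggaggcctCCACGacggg
Pdia6, -98 to -80, chr12:17266471-17266529, plus strand: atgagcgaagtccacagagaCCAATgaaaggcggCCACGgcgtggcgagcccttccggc
Creld2, -126 to -108, chr15:88819500-88819558, plus strand: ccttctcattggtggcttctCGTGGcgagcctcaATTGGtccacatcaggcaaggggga
Ero1lb, -201 to -183, chr13:12565662-12565720, plus strand: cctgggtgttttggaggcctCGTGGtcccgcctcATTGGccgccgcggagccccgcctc
Dnajc3, -105 to -87, chr14:118937807-118937865, plus strand: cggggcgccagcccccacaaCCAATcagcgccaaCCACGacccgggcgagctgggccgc
Calr, -162 to -144, chr8:84847055-84847113, minus strand: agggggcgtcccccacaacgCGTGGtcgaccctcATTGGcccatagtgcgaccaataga
Canx, -145 to -127, chr11:50325780-50325838, minus strand: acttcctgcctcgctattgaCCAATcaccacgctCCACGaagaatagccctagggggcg
Hsp90b1, -212 to -194, chr10:86705618-86705676, minus strand: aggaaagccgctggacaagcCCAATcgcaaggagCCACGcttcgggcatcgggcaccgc
Hsp90b1, -107 to -89, chr10:86705513-86705571, minus strand: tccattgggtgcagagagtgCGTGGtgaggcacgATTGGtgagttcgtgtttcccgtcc
Herpud1 (ERSE-II), -52 to -42, chr8:94386357-94386407, plus strand: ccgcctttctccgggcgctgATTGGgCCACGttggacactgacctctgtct
The shorter ERSE-II form stood in Herpud1 and Dnajb11, 2 of the 25 genes (8.0%), against 8 of the 7811 tested genes (0.102%). The XBP1-binding core TGACGTGG stood in none of the 25, against 1.02% of tested genes. The T-box core AGGTGTGA, the kind of sequence that T-bet binds, stood in 1 of the 25, Hsp90b1, against 1.11% of tested genes. These matches are descriptions of the windows and not evidence of binding.

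In the libraries as a whole, the low FPKM values implied totals of 23342139 to 24966634 counted reads. Tbx21 was at 13.2 and 11.7 FPKM in WT, against 2.29 and 2.41 FPKM in Tbx21-KO. All 7 measured T cell markers were present in every library, 6 of them lower in Tbx21-KO, with a summed level of 1507 and 1618 FPKM in WT, against 1106 and 1138 FPKM in Tbx21-KO. The coreceptor genes Cd4 and Cd8b1 were low in both groups, Cd4 with group means of 1.79 (WT) and 2.02 FPKM and Cd8b1 with 2.44 (WT) and 2.92 FPKM, and neither was called. Transcripts of other cells differed far more between the groups. All 13 granulocyte markers were higher in Tbx21-KO, with a summed level of 7.3 and 10.9 FPKM in WT (Csf3r and Cebpe were at 0 in WT 1) and 11895 and 12232 FPKM in Tbx21-KO. The 10 measured eosinophil, mast cell and basophil markers summed to 24.6 and 26.1 FPKM in WT, against 459.4 and 453 FPKM in Tbx21-KO (7 higher, 1 lower), with Mcpt4 at 0 in both WT libraries. The 8 monocyte and macrophage markers summed to 199 FPKM in each WT library, against 485 and 517 FPKM in Tbx21-KO (7 higher), and the 9 dendritic cell markers to 34.4 and 37.3 FPKM against 106 and 112 FPKM (4 higher), with Clec9a at 0 in both WT libraries. The 11 measured B and plasma cell markers, of interest because antibody-secreting cells are rich in ER, summed to 41.0 and 43.2 FPKM in WT, against 81.7 and 77.7 FPKM in Tbx21-KO, and all 4 that were tested were higher (Igkc, Jchain, Mzb1 and Ighm). Igkc went from 5.80 and 6.62 FPKM to 36.7 and 33.3 FPKM, and Jchain from 0.62 and 0.38 FPKM to 2.33 and 1.90 FPKM. Sdc1 went from 0.52 and 0.46 FPKM to 1.07 and 0.96 FPKM, and Tnfrsf17 was at 0 in both Tbx21-KO libraries. A WT mean of at least 1 FPKM was reached by 5 granulocyte markers and 3 eosinophil, mast cell and basophil markers. It was also reached by 5 monocyte and macrophage markers, 6 dendritic cell markers, and 2 B and plasma cell markers, Igkc and Ighm. Other tested markers of these lists entered the test only through the Tbx21-KO libraries, so their calls carry no weight beside the levels. The part of these other cells in the results below was not tested. In bulk RNA, fewer cells of a type and less RNA per cell cannot be told apart.

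The ER folding genes did not move as 1 block. The sensors Ern1 and Atf6 are grouped here with Xbp1, the target of IRE1 alpha. All 3 genes of this sensor group were higher in Tbx21-KO, led by Ern1 at 2.75-fold and Xbp1 at 1.71-fold. The chaperones split, with 3 higher and 5 lower of 11, and the degradation genes had 3 lower and none higher of 6. With the libraries rescaled to 20 T cell receptor and signalling genes, the sensor group was still higher and none of the 31 was lower. That scaling moved the median of all genes by 0.35 on the log2 scale. Higher calls could therefore hardly be lost under it, and small falls could hardly remain. By contrast, all 10 lower calls of the deposited scaling held with quantile normalization and with median-of-ratios scaling. In all, 9 of the 31 were higher and 10 lower (limma on log2(FPKM + 1), Benjamini-Hochberg adjusted p under 0.05 over all genes), and 12 were not called. That is 61.3% called, against 53.1% of all 11013 genes tested, of which 30.1% were higher and 23.0% lower. The share of ER folding genes called is thus close to that of genes at large. Their median log2 fold change was -0.0037, against 0.04 for all genes tested. All 31 also had a mean above 1 FPKM in WT, so none entered the test through the Tbx21-KO libraries. The differences were mostly small: 29 of the 31 were under 0.5 on the log2 scale, as were 75.1% of all genes tested. Without Tbx21-KO 1 the median of the 31 was -0.0081, and without Tbx21-KO 2 it was 0.0273. Fewer genes were called in both of these fits, among the 31 as among all genes tested.

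In WT the levels spanned from 450.0 FPKM for Calr (SD 13.7, n = 2) to 4.86 FPKM for Ero1lb (SD 0.0084, n = 2). Calr, Hspa5 at 385 FPKM and Pdia3 at 343 FPKM were the 3 most abundant in WT and remained so in Tbx21-KO, where Calr was at 408, Pdia3 at 321 and Hspa5 at 320 FPKM. Pdia3 and Hspa5 were apart in WT (338 and 349 FPKM against 385 and 385 FPKM), while in Tbx21-KO their libraries overlapped (319 and 323 FPKM against 313 and 326 FPKM). The sensors Atf6 and Ern1, with Derl2 and Ero1lb, were the 4 genes under 10 FPKM in WT. Summed over all 31 genes, the level was 3029 and 3084 FPKM in WT, against 3022 and 3039 FPKM in Tbx21-KO, which is 0.982% and 0.991% of all FPKM in WT, against 0.968% and 0.931% in Tbx21-KO. The summed levels of the groups overlapped. The sum of Ern1, Atf6 and Xbp1, most of it Xbp1, went from 84.4 and 86.3 FPKM to 147 and 150 FPKM. That of the degradation genes went from 313 and 318 FPKM to 263 and 265 FPKM.

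**Figure D1:**
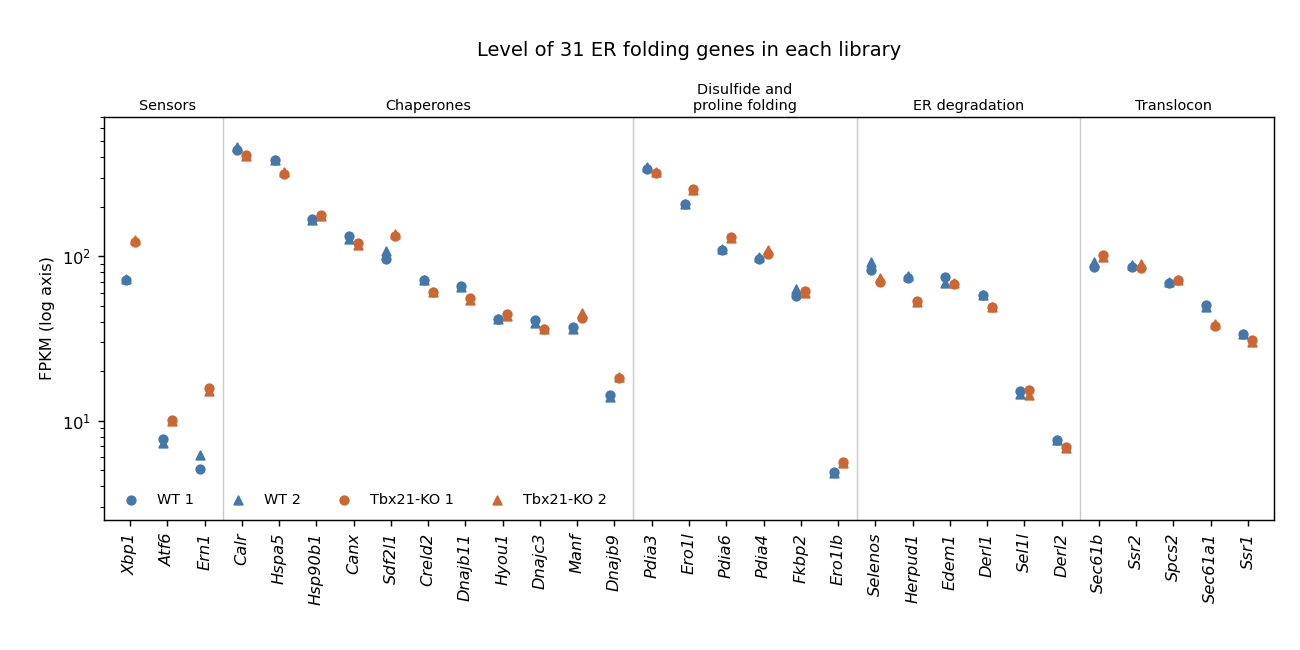
FPKM (log axis) of each of the 31 genes in each library, grouped by role and ordered by WT mean. Blue marks WT and orange Tbx21-KO, circles are replicate 1 and triangles replicate 2; Xbp1 and Ern1 show the widest gap between the colours, and Calr, Hspa5 and Pdia3 stand highest.

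Of the 31 genes, the sensor gene Ern1 and its target Xbp1 had the largest differences. Ern1 (ENSMUSG00000020715, GRCm38 chromosome 11, 106394650 to 106487852), which encodes the kinase and ribonuclease IRE1 alpha, was at 5.11 and 6.20 FPKM in the WT libraries and reached 15.8 and 15.2 FPKM in Tbx21-KO 1 and 2. These values imply 1043 and 1223 reads in WT and 3019 and 2994 in Tbx21-KO. Both Tbx21-KO libraries lay far above both WT libraries, and the log2 fold change was 1.32 (SE 0.09, limma adjusted p = 0.000432). A difference of that size or more, in either direction, was found for 6.37% of all genes tested.

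Xbp1 (ENSMUSG00000020484, chromosome 11, 5520659 to 5525893), the transcription factor whose mRNA IRE1 alpha splices, was at 71.5 and 72.7 FPKM in WT, against 121 and 125 FPKM in Tbx21-KO. The gap between the groups was far wider than the SD of the WT libraries (0.84 FPKM) or of the Tbx21-KO libraries (2.31 FPKM). The log2 difference was 0.76 (SE 0.04, limma adjusted p = 0.000157). Of all genes tested, 14.4% differed by as much or more, in either direction. Atf6 (ENSMUSG00000026663, chromosome 1, 170704674 to 170867771), the membrane-bound factor of the other branch measured here, was at 7.76 and 7.35 FPKM in WT, against 10.126 and 10.002 FPKM in Tbx21-KO. Its log2 fold change was 0.37 (SE 0.05, adjusted p = 0.00398). The calls of these 3 genes held in each of the 15 alternative fits, although scaling to T cell receptor genes could hardly take a higher call away. Their log2 fold changes ran from 0.95 to 1.69 for Ern1, 0.65 to 1.17 for Xbp1 and 0.25 to 0.74 for Atf6. They were higher in the same libraries in which the granulocyte markers summed to 11895 and 12232 FPKM, and the part of such cells was not tested.

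With the deposited scaling, BiP and its partners moved both ways. Hspa5 (ENSMUSG00000026864, chromosome 2, 34771970 to 34777547), which encodes BiP, the main ER chaperone of the HSP70 family, was at 385 FPKM in both WT libraries, against 313 and 326 FPKM in Tbx21-KO. This fall to 83.1% of WT (log2 fold change -0.27, SE 0.04, adjusted p = 0.00516) was a call lost without Tbx21-KO 1, where the difference was -0.24. Hyou1, a nucleotide exchange factor for BiP, was at 41.7 and 41.5 FPKM in WT, against 44.7 and 43.5 FPKM in Tbx21-KO, and was not called (difference 0.08, 95% interval -0.02 to 0.18). Among the ER folding genes, 3 J-domain partners of BiP were measured. Further J-domain genes were in the list of other chaperones described below. Of these, Dnajc10 (log2 fold change 0.70) and Dnajb12 (0.20) were higher, Sec63 (-0.19) was lower and Dnajc1 (-0.09) was not called. Dnajb9 rose from 14.3 and 13.9 FPKM to 18.3 and 18.4 FPKM, a log2 fold change of 0.36 (adjusted p = 0.00248). Dnajb11, which brings unfolded chains to BiP, fell from 66.3 and 65.2 FPKM to 56.0 and 54.1 FPKM, a log2 fold change of -0.25 (adjusted p = 0.00527). Dnajc3, a partner that also dampens eIF2 alpha kinases, fell from 41.0 and 39.3 FPKM to 35.9 and 36.0 FPKM. Its log2 fold change of -0.16 lost its call without WT 1 (-0.13), Tbx21-KO 1 (-0.15) or Tbx21-KO 2 (-0.16). The groups did not overlap for Dnajb9, Dnajb11 or Dnajc3. Relative to T cell receptor genes these 3 were higher (0.74 for Dnajb9, 0.16 for Dnajb11 and 0.25 for Dnajc3), as was Hspa5 (0.15).

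Sdf2l1, Manf and Creld2, smaller ER proteins induced in the unfolded protein response, also split with the deposited scaling. Sdf2l1, which works with Dnajb11 on BiP substrates, rose from 96.7 and 108 FPKM to 132 and 136 FPKM (log2 fold change 0.39, SE 0.06, adjusted p = 0.00666), a call lost without Tbx21-KO 2 (0.37). Manf, a BiP-binding protein that can be secreted, rose from 37.4 and 36.1 FPKM to 42.1 and 44.9 FPKM (log2 fold change 0.24, adjusted p = 0.0139), a call lost without Tbx21-KO 2 (0.19) and with median-of-ratios scaling (0.13). Creld2 fell from 72.0 and 72.1 FPKM to 60.7 and 60.8 FPKM (log2 fold change -0.24, adjusted p = 0.00408). Hsp90b1, the ER member of the HSP90 family, was at 168 and 166 FPKM in WT, against 177 and 175 FPKM in Tbx21-KO, and was not called (0.07, 95% interval -0.02 to 0.16).

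Of the lectin chaperones, which hold glycoproteins while they fold, 1 of 2 was called lower with the deposited scaling, against 23.0% of all genes tested. Calr, which encodes calreticulin, was at 440.3 and 459.6 FPKM in WT, against 411 and 405 FPKM in Tbx21-KO. The groups did not overlap and the fall to 90.7% of WT passed the threshold narrowly (log2 fold change -0.14, adjusted p = 0.0437). That call was lost without WT 2 (-0.11), Tbx21-KO 1 (-0.15) or Tbx21-KO 2 (-0.13). Its membrane-bound relative Canx, calnexin, was at 133 and 127 FPKM in WT, against 121 and 117 FPKM in Tbx21-KO, and was not called (-0.13, 95% interval -0.24 to -0.01, adjusted p = 0.0636), although it was called lower without WT 2 (-0.16).

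Among the genes of disulfide bond formation and proline isomerization, 2 of 6 were higher and none lower. That is 33.3% called, against 53.1% of all genes tested (30.1% higher and 23.0% lower). Ero1l, the oxidase that recharges disulfide isomerases, was among the most abundant of the genes described, at 208 FPKM in both WT libraries and 255 and 253 FPKM in Tbx21-KO. Its replicates nearly coincided, and it rose 1.22-fold (log2 fold change 0.29, SE 0.03, adjusted p = 0.00255). Its relative Ero1lb was among the least abundant, at 4.86 and 4.85 FPKM in WT, against 5.62 and 5.51 FPKM in Tbx21-KO, and was not called (0.16, 95% interval 0.02 to 0.31, adjusted p = 0.0581). The isomerase Pdia6 rose from 109 and 110.2 FPKM to 130.2 and 129.8 FPKM (log2 fold change 0.24, adjusted p = 0.00407). Pdia4 was at 95.5 and 99.0 FPKM in WT, against 103 and 109 FPKM in Tbx21-KO, and was not called (0.12, 95% interval 0.01 to 0.24). Pdia3, the isomerase that partners calreticulin and calnexin, was at 338 and 349 FPKM in WT, against 319 and 323 FPKM in Tbx21-KO, and was not called (-0.10, 95% interval -0.20 to 0.0048). The prolyl isomerase Fkbp2 overlapped between the groups (56.9 and 63.4 FPKM in WT, against 61.3 and 59.7 FPKM in Tbx21-KO), with a 95% interval of -0.15 to 0.17.

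The genes of ER-associated degradation, which recognise misfolded chains and pass them through the membrane, had 3 lower and 3 not called of 6. That is 50% called, against 53.1% of all genes tested (30.1% higher and 23.0% lower). Herpud1 (ENSMUSG00000031770, chromosome 8, 94386438 to 94395377), a membrane protein of the degradation complex, fell from 73.3 and 76.0 FPKM to 53.5 and 52.7 FPKM. At 71.1% of WT, with a log2 difference of -0.48 (SE 0.04, adjusted p = 0.000688), this was the largest fall of the 31 genes. Derl1, a derlin of the retrotranslocation channel, fell from 58.4 and 58.1 FPKM to 49.0 and 48.9 FPKM (-0.25, adjusted p = 0.00405). Selenos, a selenoprotein that links derlins to the ATPase VCP, fell from 82.8 and 92.4 FPKM to 70.0 and 73.6 FPKM (-0.28, adjusted p = 0.0198), a call lost without Tbx21-KO 1 (-0.25) or Tbx21-KO 2 (-0.32). Derl2, at 7.69 FPKM in both WT libraries, against 6.90 and 6.87 FPKM in Tbx21-KO, did not overlap between the groups but was not called (-0.14, 95% interval -0.27 to -0.01). Edem1, which takes mannose-trimmed glycoproteins out of the folding cycle, was at 75.2 and 68.8 FPKM in WT, against 67.8 and 68.3 FPKM in Tbx21-KO, and was not called (95% interval -0.22 to 0.06). Sel1l, the adaptor of the ubiquitin ligase HRD1, overlapped between the groups at 14.3 to 15.3 FPKM (95% interval -0.15 to 0.13).

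At the entry to the ER, Sec61a1 (ENSMUSG00000030082, chromosome 6, 88503579 to 88518905), the pore-forming subunit of the channel, fell from 50.5 and 49.2 FPKM to 37.8 and 38.6 FPKM. Its log2 fold change was -0.37 (SE 0.04, adjusted p = 0.0015), or 76.7% of WT. Sec61b, a small subunit of the same channel, was at 85.9 and 91.8 FPKM in WT, against 101 and 98.4 FPKM in Tbx21-KO, and rose by 0.17 (adjusted p = 0.0371). That call was weak: it was lost without WT 1 (0.12), Tbx21-KO 1 (0.15) or Tbx21-KO 2 (0.19), with the replicate number as a block (0.17) and with median-of-ratios scaling (0.05). Ssr1, a subunit of the translocon-associated complex, was at 33.6 and 33.5 FPKM in WT, against 30.8 and 30.0 FPKM in Tbx21-KO (-0.14, adjusted p = 0.0352), and its call was lost without any 1 of the 4 libraries (-0.12 to -0.15) and with the replicate block (-0.14). Ssr2, of the same complex, overlapped between the groups at 84.4 to 89.3 FPKM (95% interval -0.12 to 0.11), and Spcs2, a subunit of the signal peptidase that cuts off the targeting signal, was not called at 68.4 and 69.9 FPKM against 72.1 FPKM in both Tbx21-KO libraries (95% interval -0.03 to 0.15). Over the 31 genes, both Tbx21-KO libraries were above both WT libraries in 14 and below them in 14, against 43.7% above and 35.3% below, or 79.0% in all, of the genes tested.

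**Figure D2:**
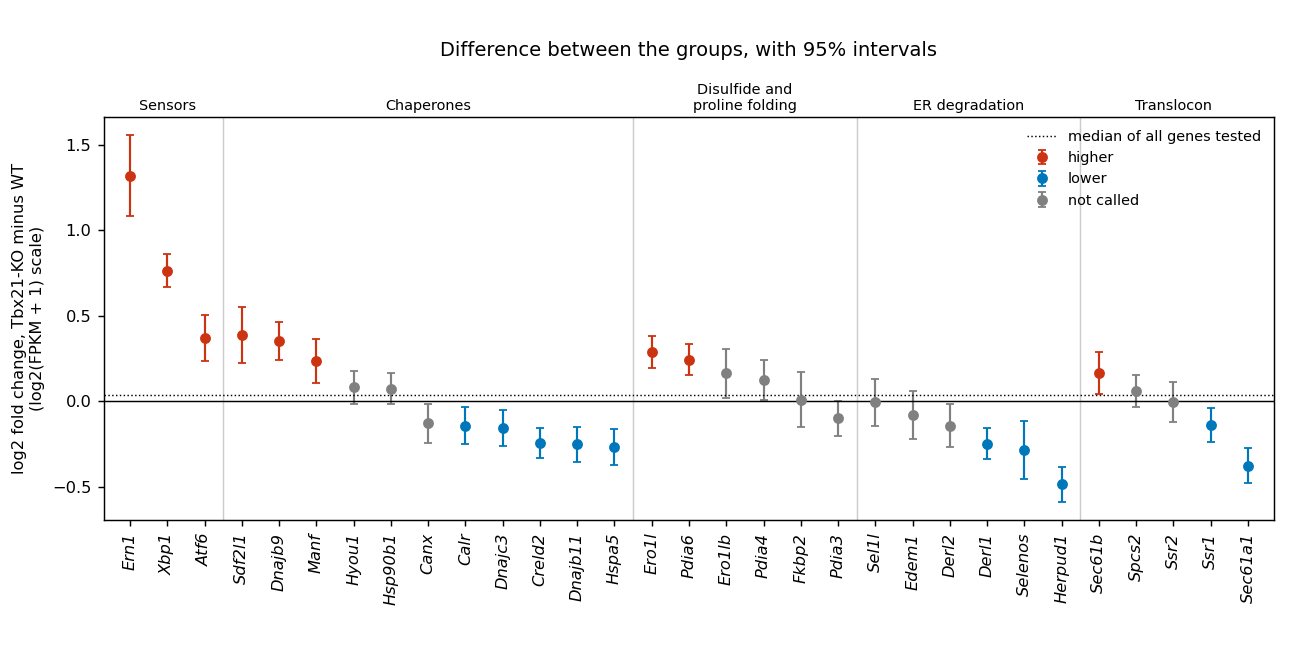
Log2 fold change of each gene, the Tbx21-KO mean less the WT mean of log2(FPKM + 1), with 95% intervals from the limma fit, grouped by role. Red and blue mark genes called higher and lower with the deposited scaling, grey those not called, and the dotted line is the median of all genes tested at 0.04; Ern1 and Xbp1 lie above 0.5, and Herpud1 is lowest at -0.48 (-0.08 when scaled to T cell receptor genes).

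The direction of the small differences depended on how the libraries were scaled. Rescaled to a list of 20 genes of the T cell receptor and its signalling, of which 14 were themselves called lower in Tbx21-KO, 28 of these 31 rose and none fell, against 67.6% higher and 5.5% lower of all genes tested. This scaling moved the median of all genes by 0.35 on the log2 scale, and quantile normalization by -0.14. Of the 10 lower calls, 7 turned to higher and 3 were lost, those of Herpud1 (-0.08), Selenos (0.13) and Sec61a1 (0.03). With quantile normalization 10 were higher and 12 lower (22.1% and 34.5% of all genes), and with median-of-ratios scaling 7 were higher and 14 lower (24.1% and 32.0% of all genes). The 6 calls of Xbp1, Atf6, Ern1, Dnajb9, Pdia6 and Ero1l, all of them higher, held in all 15 alternatives. Higher calls could hardly be lost under the T cell receptor list scaling, which moved the median up.

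A ratio of 2 genes within a library does not depend on its scaling. Each gene was divided by Hspa5, a choice made after the values were seen. The ratio of Xbp1 to Hspa5 was 0.186 and 0.189 in WT and 0.387 and 0.382 in Tbx21-KO, 2.05 times higher. For Ern1 the ratio was 0.0133 and 0.0161 in WT and 0.0505 and 0.0467 in Tbx21-KO, 3.31 times higher. The ratio of Ero1l to Hspa5 was 0.540 and 0.539 in WT against 0.812 and 0.776 in Tbx21-KO. At the other end, the ratio of Herpud1 to Hspa5 was 0.191 and 0.198 in WT and 0.171 and 0.162 in Tbx21-KO, and that of Sec61a1 was 0.131 and 0.128 against 0.121 and 0.119. These 2 were the only ones of 30 ratios that were below WT without overlap, with 24 above WT and 4 overlapping (Dnajb11, Creld2, Derl1 and Selenos). Hspa5 itself was lower with the deposited scaling, and over all genes tested 67.6% of ratios to it were above WT without overlap and 14.7% below. These ratios are given as a description of the 4 libraries.

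**Figure D3:**
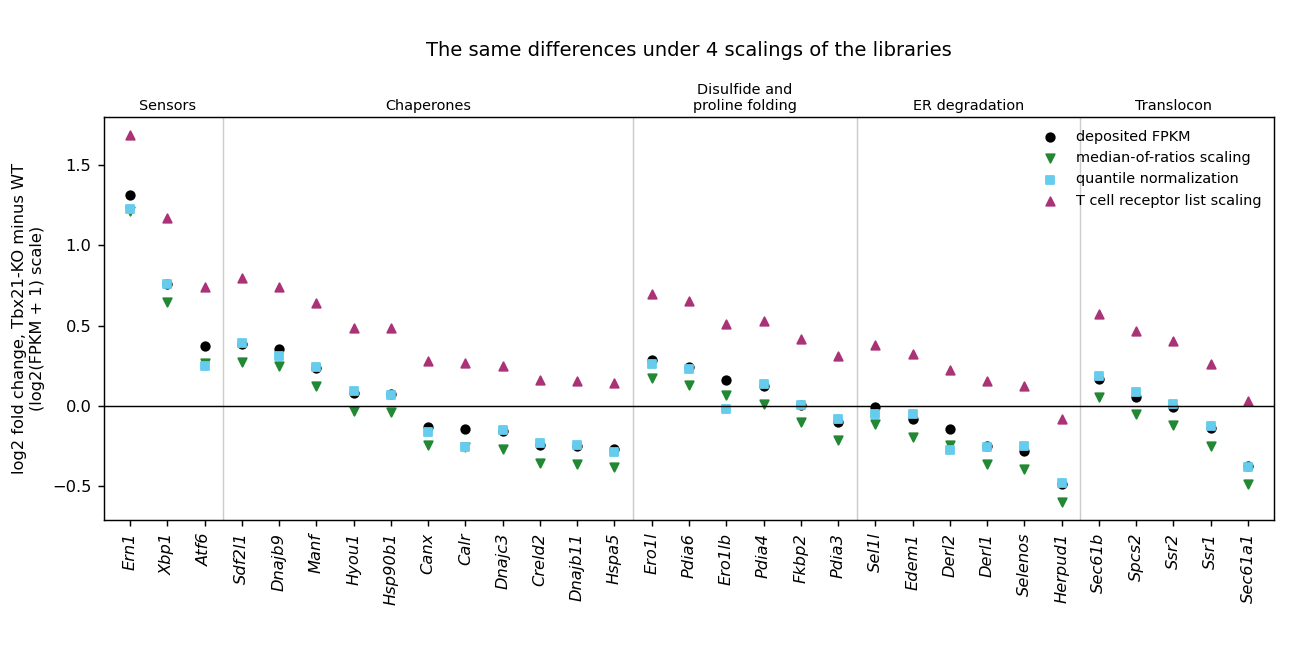
Log2 fold change of each gene, Tbx21-KO minus WT, with the deposited values (black), median-of-ratios scaling (green), quantile normalization (light blue) and scaling to T cell receptor genes (purple). The order of genes is nearly kept while the level shifts; under the purple scaling Herpud1 alone lies below 0, at -0.08.

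Of the 8 genes with the ER stress element, with the deposited scaling, Hspa5, Creld2, Dnajc3 and Calr were lower, Pdia6 was higher, and Canx, Hsp90b1 and Ero1lb were not called. Both genes with the shorter ERSE-II form, Herpud1 and Dnajb11, were lower. Relative to T cell receptor genes none of these 6 falls held. Those of Dnajc3 and Calr had limma adjusted p of 0.0285 and 0.0437, and their calls depended on single libraries, as given above. Of all genes tested, 30.1% were higher and 23.0% lower. Whether genes with these elements differ from genes at large was not tested. The remaining 6 tested genes with the full element, Adcy3, Alg12, Hnrnpa3, Pan2, Tdrd9 and Xlr3b, are not ER chaperones. Of these, Pan2 was higher and Adcy3 lower. Tdrd9 and Xlr3b, with WT means under 1 FPKM, passed the filter on low values only through the Tbx21-KO libraries, so their values are given without their calls. Xlr3b was at 0.25 and 0.33 FPKM in WT, against 2.07 and 1.67 FPKM in Tbx21-KO. Tdrd9 was at 0.89 and 0.87 FPKM in WT, against 9.57 and 9.26 FPKM in Tbx21-KO.

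Other genes of the pathway were taken from 7 lists that hold 198 symbols, of which 186 had a row and 177 were tested, with a WT mean of at least 1 FPKM in 173. Of these 57 were higher and 29 lower, or 48.6% called against 53.1% of all genes tested, with a median of 0.03. That split moved with the scaling. Quantile normalization gave 49 higher and 47 lower, and median-of-ratios scaling 42 higher and 54 lower with a median of -0.07. The T cell receptor list gave 149 higher and 3 lower. With the deposited scaling, 30.1% and 23.0% of all genes tested were higher and lower. Under these 3 other scalings the shares were 22.1% and 34.5%, 24.1% and 32.0%, and 67.6% and 5.5%. The regulators of the stress response had 5 higher and 6 lower of 22, which became 3 and 8, 2 and 10, and 16 and 2 under the same 3 scalings. Trib3, a pseudokinase gene induced by ATF4, had the largest fall, from 40.2 and 39.6 FPKM to 13.5 and 14.4 FPKM (-1.46, adjusted p = 5.32e-05, and -1.06 relative to T cell receptor genes). Chac1, a glutathione-degrading enzyme of the same response, fell from 6.14 and 8.15 FPKM to 3.98 and 3.51 FPKM (-0.77, and -0.43 relative to T cell receptor genes), a call lost without Tbx21-KO 2. Atf4 itself fell from 379 and 385 FPKM to 284 and 292 FPKM (-0.40, adjusted p = 0.0012), a call lost relative to T cell receptor genes (0.01). Ddit3, the factor CHOP of prolonged ER stress, named after its value was seen, was at 13.2 and 12.1 FPKM in WT, against 16.1 and 13.2 FPKM in Tbx21-KO, and was not called (0.19). The largest rise was that of Creb3l2, a membrane-bound relative of ATF6, from 3.27 and 3.40 FPKM to 7.87 and 6.88 FPKM (0.95), followed by Wfs1 (0.43) and Crebrf (0.33). The call of Wfs1 was lost in 6 of the 15 alternatives, among them without WT 1, WT 2 or Tbx21-KO 1, and that of Crebrf in 7, among them without WT 2, Tbx21-KO 1 or Tbx21-KO 2.

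Other chaperones had 12 higher and 1 lower of 24 tested, with a median of 0.26, and other disulfide enzymes 10 higher and 1 lower of 17, with a median of 0.25, against 30.1% higher and 23.0% lower of all genes tested. Quantile normalization gave 10 higher and 4 lower for the chaperones and 9 and 2 for the disulfide enzymes. Median-of-ratios scaling gave 11 and 2 and 8 and 1, and the T cell receptor list 23 and 0 and 15 and 1. Under these scalings 22.1% and 34.5%, 24.1% and 32.0%, and 67.6% and 5.5% of all genes tested were higher and lower. Of the largest rises, those of Selenom, Fkbp11 and Clgn started from low WT levels, while Prdx4 was at 7.51 and 7.56 FPKM in WT. Clgn, Mzb1 and, among the degradation genes, Svip passed the filter on low values only through the Tbx21-KO libraries. They are included in the counts and medians of their lists, though their calls carry no weight. The prolyl isomerase Fkbp11 went from 0.77 and 1.59 FPKM to 6.27 and 6.89 FPKM (1.82), Clgn, a calnexin relative, from 0.33 and 0.18 FPKM to 3.54 and 2.96 FPKM (1.76), and the selenoprotein Selenom from 1.84 and 3.19 FPKM to 14.7 and 14.5 FPKM (2.18). Prdx4, the ER peroxiredoxin that uses hydrogen peroxide to form disulfides, rose from 7.51 and 7.56 FPKM to 28.8 and 30.1 FPKM (1.83, SE 0.05, adjusted p = 2.69e-05), and Qsox1, a sulfhydryl oxidase, rose from 4.23 and 4.09 FPKM to 10.5 and 8.98 FPKM (1.05). Mzb1, a chaperone of B and plasma cells, went from 0.35 and 0.82 FPKM to 1.66 and 1.79 FPKM. The genes that fell were Sec63, a J-domain partner of the channel (-0.19, 0.20 relative to T cell receptor genes, lost without WT 1, Tbx21-KO 1 or Tbx21-KO 2), and Gpx8, an ER peroxidase, from 1.69 and 1.91 FPKM to 0.25 and 0.61 FPKM (-0.98). The rises of Prdx4, Selenom, Fkbp11 and Clgn appeared in the libraries with the granulocyte transcripts, whose part in them was not tested.

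Other degradation genes had 7 higher and 7 lower of 25, which became 6 and 10 with quantile normalization, 6 and 13 with median-of-ratios scaling and 19 and 0 with the T cell receptor list. Of all genes tested, 30.1% were higher and 23.0% lower. Under the same 3 scalings these shares were 22.1% and 34.5%, 24.1% and 32.0%, and 67.6% and 5.5%. Svip, an inhibitor of ER degradation that binds VCP, went from 0.36 and 0.21 FPKM to 7.31 and 7.45 FPKM (2.71), Erlin1 rose by 1.04 and Edem2 by 0.55, whereas Vcp, the ATPase that pulls chains from the membrane, fell from 95.43 and 95.02 FPKM to 73.5 and 72.7 FPKM (-0.38). Ubxn8, a VCP recruiter, and the ubiquitin ligase gene Rnf139 fell by 0.54 and 0.37. Relative to T cell receptor genes the calls of Vcp, Ubxn8 and Rnf139 were lost (0.03, -0.17 and 0.01). Targeting and insertion genes had 6 higher and 4 lower of 28, which became 5 and 5, 4 and 9, and 24 and 0 under the same 3 scalings. Among them, Sec61g, the third subunit of the SEC61 channel, rose from 13.8 and 14.8 FPKM to 18.9 and 20.2 FPKM (0.43), and Ssr4 rose by 0.42. Tram2 rose by 0.47, a call lost without Tbx21-KO 1. Sec61a2 (-0.36, lost without WT 1, WT 2 or Tbx21-KO 2), Srp19 (-0.33, lost without Tbx21-KO 1) and Emc3 (-0.21, lost without Tbx21-KO 1 or Tbx21-KO 2) were the largest called falls, of which Emc3 turned to higher (0.19) relative to T cell receptor genes. The channel's subunits thus had Sec61g and Sec61b higher and Sec61a1 and Sec61a2 lower with the deposited values, and relative to T cell receptor genes Sec61a1 (0.03) and Sec61a2 (-0.04) were not called.

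N-glycosylation genes had 5 higher and 6 lower of 30, which became 4 and 11 with quantile normalization, 3 and 12 with median-of-ratios scaling and 23 and 0 with the T cell receptor list. Under the same 3 scalings, 22.1% and 34.5%, 24.1% and 32.0%, and 67.6% and 5.5% of all genes tested were higher and lower. Rpn2, a subunit of the oligosaccharyltransferase, rose from 90.6 and 88.2 FPKM to 114 and 118 FPKM (0.37), while its catalytic subunit Stt3b fell from 75.9 and 71.0 FPKM to 53.0 and 55.4 FPKM (-0.43, not called at -0.03 relative to T cell receptor genes). Alg2 rose by 0.43 and Pgm3 by 0.39, the latter lost without WT 1, Tbx21-KO 1 or Tbx21-KO 2. Alg3 (-0.44) and Ost4 (-0.29) fell, calls that were lost without WT 1 or Tbx21-KO 2 and, for Ost4, also without Tbx21-KO 1. ER to Golgi transport had 12 higher and 4 lower of 31, against 30.1% higher and 23.0% lower of all genes tested. It had 12 higher and 7 lower with quantile normalization, 8 and 7 with median-of-ratios scaling (median -0.07), and 29 and 0 with the T cell receptor list. Tmed3, a cargo receptor of the p24 family, rose from 17.3 and 16.5 FPKM to 38.9 and 42.0 FPKM (1.21, SE 0.06, adjusted p = 0.000132). Mcfd2 and Bet1 rose by 0.71 and 0.69, and Ergic1, Tmed9 and Arcn1 fell by 0.31, 0.27 and 0.19, Arcn1 losing its call without Tbx21-KO 1 or Tbx21-KO 2. Relative to T cell receptor genes Tmed9 and Arcn1 turned to higher (0.13 and 0.20) and Ergic1 was not called (0.08).

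**Figure D4:**
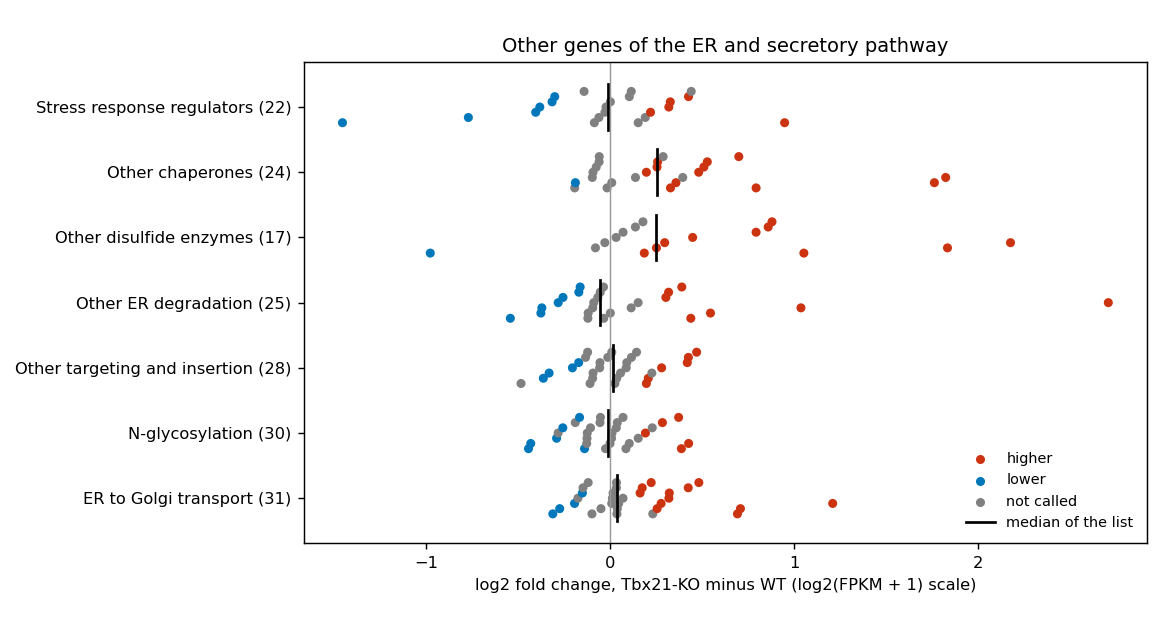
Log2 fold change, the Tbx21-KO mean less the WT mean of log2(FPKM + 1), of the tested genes of 7 other ER and secretory pathway lists, 1 point a gene, with the number tested in brackets. Red and blue mark genes called higher and lower, grey those not called, and the black bar the list's median; the chaperone and disulfide enzyme lists have medians of 0.26 and 0.25.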

How the data were processed

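RNA of 4 mouse cDNT libraries was measured. Per the labels' protocols, column-purified RNA was made into libraries with an mRNA kit. The deposited table holds FPKM values that the authors computed per gene and library; the submitters' processing notes name the build, GRCm38 (mm10). The aligner, the counting tool and whether strand was used: not given in the sources used here. Overlapping and antisense genes therefore cannot be told apart. The last of 24769 rows breaks off and was left out. Of 24768 gene IDs, 24720 matched GENCODE M21 (GRCm38).

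With summed exon lengths, 96.8% to 97.3% of the values under 20 reads per library were whole within 0.1 read, which gave the library totals. These totals are of counted reads, not of all sequenced reads. Replicates differed by more than counting noise (median chi-square per gene 1.31 and 1.21, against 0.455 from counting alone).

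Genes with a mean of at least 1 FPKM (11013) were tested as log2(FPKM + 1), a pseudocount of 1 that understates the change of low genes, with limma 3.58.1 (R 4.3.3, variance trend), Benjamini-Hochberg adjusted over all of them and called under 0.05. An exact permutation test of 2 against 2 libraries cannot go below 0.33. On simulated data (24720 genes), 6% of 1.25-fold, 66% of 1.5-fold, 98% of 2-fold and 100% of 4-fold changes were recovered, with 14 false calls. There, 50 genes changed at each fold among 10398 tested, far fewer than the 53.1% called in the data. The adjusted threshold was therefore stricter there, and the recovered shares do not carry over to this comparison. The genes named are all 31 with a row, and up to 3 rises and 3 falls of each other list. The 15 alternatives were other pseudocounts and filters, 3 other scalings, no variance trend, voom on recovered reads, a replicate block and leaving out each library. Members, lists and alternatives were chosen with earlier results of these data known. Motifs were searched in RefSeq promoter windows with Python 3.11.15.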

Additional observations from a re-analysis of the deposited data

How the results depend on the processing

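In all, 15 alternatives were run on each of the 31 genes (465 values). Of these values, 27 turned in sign, with or without a change of call. Among those that kept their sign, 387 kept their side of the threshold, 30 lost the call and 21 gained one. Relative to T cell receptor genes, 28 of the 31 rose and 0 fell (median 0.40), and 7445 of all genes were higher and 606 lower. Turned to positive by that scaling were Hspa5 (0.15), Dnajb11 (0.16), Dnajc3 (0.25), Creld2 (0.16), Calr (0.27), Canx (0.28), Pdia3 (0.31), Sel1l (0.38), Edem1 (0.33), Derl1 (0.16), Derl2 (0.22), Selenos (0.13), Sec61a1 (0.029), Ssr1 (0.26) and Ssr2 (0.40). Median-of-ratios scaling gave a median of -0.11 and turned Hsp90b1 (-0.038), Hyou1 (-0.028), Fkbp2 (-0.10) and Spcs2 (-0.052), none of them called. Quantile normalization turned Ero1lb (-0.019) and Ssr2 (0.014) and gave 3801 lower of all genes. At a mean of at least 5 FPKM, 7032 genes were tested, of which 2018 were higher and 2171 lower. The cause of these shifts was not tested. The share of higher calls was 56.7%, against 39.1% with quantile normalization, 43.0% with median-of-ratios scaling and 92.5% with the T cell receptor list scaling. That share was 64.0% without a filter, 48.2% at a mean of at least 5 FPKM and 51.0% at a WT mean of at least 1 FPKM.

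Leaving out 1 library at a time gave 6 to 9 genes higher and 5 to 9 lower, with medians of -0.0167 to 0.0273. Fkbp2 ran from -0.068 to 0.087, Sel1l from -0.053 to 0.042 and Ssr2 from -0.044 to 0.036. With the replicate number as a block, 8 genes were higher and 10 lower. The numbers do not pair the libraries by any label, and same-numbered libraries' deviations correlated at -0.0247 across genes. A fit without a filter gave 8 higher and 8 lower, voom on recovered reads 11 higher and 13 lower, and a fit without a variance trend 9 higher and 7 lower. With 2 libraries a group, a gene that was not called may still differ. The simulated data do not measure how often, because far fewer genes changed in them than were called here.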
